A study of Homo sapiens with 6 samples.

Results

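The human ZNF genes of chromosome 19 were described in Kasumi-1 cells, an acute myeloid leukemia line that carries the fusion of RUNX1 with RUNX1T1. They were chosen by name and position only, as the protein-coding genes that GENCODE 29 (GRCh38) places on chromosome 19 under a symbol of ZNF followed by a number. Of the 32364 genes with a deposited value, 238 met this rule, and 11 further genes that meet it in GENCODE 29 had no entry among them. The series compared 3 control libraries with 3 libraries of cells incubated for 48 h with 0.5 µM I13, an inhibitor of histone deacetylases. All 6 libraries came from the same cell line, and the study's methods give DMSO at a matching concentration as the control. The labels number the replicates and do not say that they are separate cultures. The study describes its sequencing as representative of independent experiments without tying these to the numbered libraries, so the p-values measure the spread between these samples, part of which may be technical.

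A ZNF protein of the C2H2 kind binds DNA through a row of short folds, the zinc fingers, in which a zinc ion is held by a pair of cysteines and a pair of histidines. Many of them also carry a KRAB domain, which recruits the corepressor TRIM28 and, through it, the histone methyltransferase SETDB1 and HP1 proteins, so that the bound region is packed into silent chromatin. KRAB zinc finger proteins are best known for silencing transposable elements, and their genes stand in large tandem clusters on chromosome 19 that arose by repeated local duplication. Histone deacetylases act in the same repressive chromatin, and the comparison asks whether the mRNA of these genes differed after incubation with a deacetylase inhibitor.

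The coding stretches printed here show 1 finger each of the most abundant of these genes (ZNF146) and of the genes with the smallest p among those lower (ZNF581) and higher (ZNF416) in I13. They are read 5′ to 3′ on the coding strand from GENCODE 29 transcripts (GRCh38), and the capitals mark the codons of the zinc-binding cysteines and histidines. The stretches lie at chr19:36236492-36236554 on the + strand, chr19:55644836-55644898 on the + strand and chr19:57573028-57573090 on the − strand. The ZNF146 and ZNF416 stretches were identical at 60.3% of their 63 bases, whereas ZNF581 shared 44.4% with ZNF146 and 41.3% with ZNF416.
ZNF146: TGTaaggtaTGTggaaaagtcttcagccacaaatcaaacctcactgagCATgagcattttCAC
ZNF581: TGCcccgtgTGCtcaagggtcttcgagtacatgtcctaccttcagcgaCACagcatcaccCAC
ZNF416: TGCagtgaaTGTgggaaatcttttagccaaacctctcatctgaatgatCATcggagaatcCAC

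Sequencing depth ran from 15281052 fragments in I13 replicate 3 to 17221345 in control replicate 1. The markers listed for these cells were present in every library, with RUNX1T1 between 12.5 and 14.4 FPKM, KIT between 196 and 236 and MPO, the myeloperoxidase of granulocyte precursors, between 10241 and 12450. Of the measured markers of other cell types, CD3G, COL1A1 and COL1A2 were listed at 0 and all others stayed under 3 FPKM except EPCAM, which lay between 20.8 and 26.5. FPKM scales the fragments of a gene by gene length and sequencing depth, so that levels of different genes can be compared. Control replicate 3 and I13 replicate 2 stood apart from the other libraries across the genome. In both of them chromosome 19 had the highest median deviation from the other libraries of the group among 23 chromosomes. The pair was set apart because it had been seen to differ in chromosome 19 genes, so this rank is no independent support. The median was 0.13 in control replicate 3 and 0.10 in I13 replicate 2 over the other protein-coding genes of the chromosome. Over its ZNF genes it was -0.10 and -0.14. Results that rest on this pair are therefore given with and without it. Between 2 libraries of a group, the chi-square of the fragments per ZNF gene was 1.48 for control replicates 1 and 2 and 1.75 for I13 replicates 1 and 3, where a value of 1 is counting error alone. It was between 2.39 and 3.03 for the pairs that contain control replicate 3 or I13 replicate 2.

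Most of these genes were transcribed at a low level. Of the 238, 34 were listed at 0 in all 6 libraries, 34 more had a mean under 0.1 FPKM and 170 (71.4%) passed this minimum and were tested. Of the tested genes, 117 had a mean of at least 1 FPKM and 8 a mean of at least 10. The median of the means was 0.983 FPKM over all 238 genes. The ZNF genes of the other chromosomes, 245 in the table, had a median of 2.73 FPKM, and 213 of them (86.9%) passed the same minimum. The other protein-coding genes of chromosome 19 passed it in 72.5% of cases and had a median of 2.55 FPKM. Together the 238 genes held between 439 and 469 FPKM in a library, which is between 0.148% and 0.160% of the summed FPKM. A gene listed at 0 had no counted fragments, although an expected number of up to 3 in a single library could still give a count of 0 there. For a gene at 0 in all 6 libraries this limit per library is lower. The tested genes had between 6.33 and 1930 fragments on average, with a median of 132, and 5 of them had fewer than 10.

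ZNF146, which encodes a protein made almost only of fingers, was the most abundant, with 29.7, 29.7 and 25.7 FPKM in the control libraries and 30.3, 24.1 and 30.3 in the I13 libraries. Control replicate 3 and I13 replicate 2 were the lowest of their group, and the groups overlapped. ZNF581 followed with a mean of 25.3 FPKM, then ZNF317 with 16.9, ZNF574 with 13.9, ZNF428 with 12.5, ZNF787 and ZNF121 with 12.4 each, ZNF865 with 10.4, ZNF579 with 9.999 and ZNF266 with 8.14. Neighbours in this order from ZNF428 to ZNF121 differed by less than the SD of their libraries. Some well-studied genes of the family were much lower, and they were picked here for their known function and not by a rule. ZNF91, which represses SVA and LINE-1 retrotransposons, lay between 0.106 and 0.151 FPKM. ZNF93, a repressor of LINE-1 elements, was at 0 in all libraries but I13 replicate 1. ZNF350, also called ZBRK1 and known as a partner of BRCA1, was listed at 0 throughout. ZNF274, which binds the 3′ ends of zinc finger genes and brings SETDB1 there, was measured at 3.00, 3.23 and 2.84 FPKM in the control and 3.23, 3.29 and 3.57 in the I13 libraries. ZNF473, which takes part in the processing of histone mRNA, had a mean of 3.46 FPKM.

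**Figure D1:**
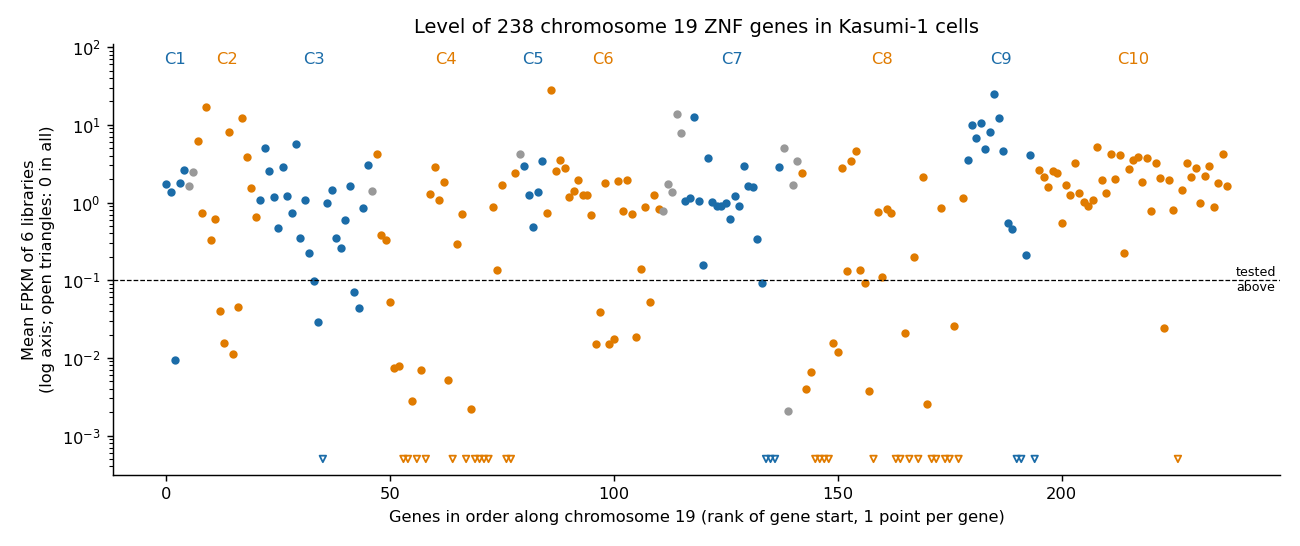
Mean FPKM of the 6 libraries (log axis) for each of the 238 genes in their order along chromosome 19, with the clusters C1 to C10 labelled along the top in alternating blue and orange, genes outside clusters in grey and genes listed at 0 as open triangles. Of the 34 genes listed at 0, C4 holds 12 and C8 holds 14, whereas 41 of 43 genes in C10 lie above the dashed minimum of 0.1 FPKM.

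Genes with a KRAB domain were the less abundant ones. A pattern of the KRAB domain was found in the longest coding sequence of 197 of the 238 genes and was not found in 41; a domain that has drifted from the pattern would be missed. The median of the mean FPKM was 0.800 with the pattern and 2.88 without it, 32 of the 34 genes listed at 0 had the pattern, and only 2 of the 10 most abundant genes did, ZNF317 and ZNF266. On the other chromosomes, the pattern was found in 96 of 245 ZNF genes, and the medians were 2.53 FPKM with it and 3.27 without it. The number of C2H2 fingers per gene ran from 0 to 31 with a median of 12. Genes with 15 or more fingers had a median of 0.770 FPKM, those with 10 to 14 fingers 0.990, and those with fewer than 10 fingers 1.67. These are descriptions over genes, which are no replicates, and were not tested. Sequence is also shared with other annotated genes, either related copies or genes annotated over the same exons, and these were not told apart. The share of a transcript's stretches of 50 bases that recur in another annotated gene had a median of 1.49% in the tested genes and 5.19% in those not tested. This share was at least 50% in 12 genes, of which 3 were tested. Most of the 12 overlap another gene in exons on the same strand, as ZNF320 does with AC010487.3. ZNF177 does so with ZNF559-ZNF177, which is itself among the 238 genes. The values of the 12 are uncertain where fragments could be split between copies or overlapping genes.

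**Figure D2:**
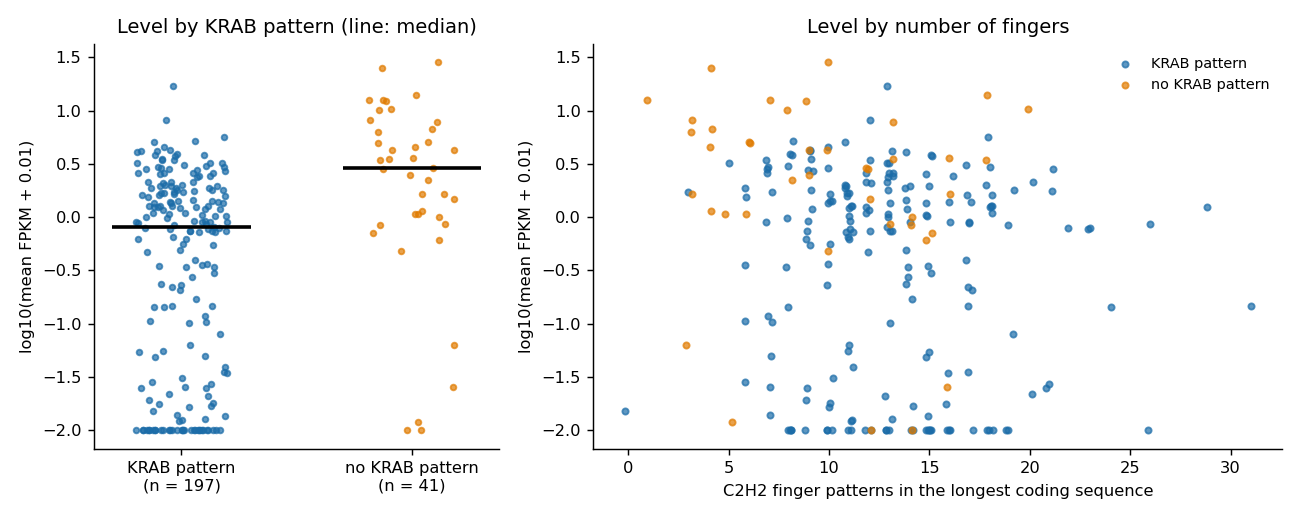
Mean FPKM of the 6 libraries, as log10(FPKM + 0.01), for 197 genes with and 41 without a KRAB pattern (left, line at the median) and against the number of C2H2 finger patterns (right), 1 point per gene. The genes without the pattern lie higher, with a median of 2.88 against 0.800 FPKM.

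The genes stood in 10 clusters of 5 or more genes, split where neighbours were over 0.5 Mb apart and numbered C1 to C10 along the chromosome, and 13 genes lay outside them. The level differed widely between clusters. C9, at 55.5 to 56.7 Mb, had the highest median of 4.33 FPKM over 16 genes, and ZNF581 was its most abundant gene. C10, at 57.2 to 58.5 Mb near the end of the long arm, had a median of 1.97 FPKM over 43 genes, and 41 of them (95.3%) were tested. Its highest gene was ZNF550, with a mean of 5.14 FPKM. In C4, at 19.7 to 24.1 Mb on the short-arm side of the centromere, 12 of 32 genes were listed at 0 and the median was 0.007 FPKM. ZNF101, at the outer edge of C4, was its highest gene, with 4.19 FPKM. C8, at 51.6 to 53.6 Mb, was alike in this, since 14 of 37 genes were listed at 0 and the median was 0.012 FPKM, while ZNF480 reached 4.59. The other clusters had medians between 0.690 FPKM in C2 and 1.72 in C1, and their highest genes were ZNF77 in C1, ZNF317 in C2, ZNF700 in C3, ZNF792 in C5, ZNF146 in C6 and ZNF428 in C7. Expressed and silent genes stood side by side, as in C4, where ZNF430, ZNF714, ZNF431 and ZNF708 had means of 1.27, 2.88, 1.08 and 1.85 FPKM and the preceding gene, ZNF85, was listed at 0.

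After incubation with I13 for 48 h, no chromosome 19 ZNF gene passed the thresholds of an adjusted p under 0.05 and a log2 fold change of 0.58. With limma on log2(FPKM + 0.1) and Benjamini-Hochberg adjustment over 18726 genes, 0 of 170 were called, as were 0% of all genes tested, and the smallest adjusted p of these genes was 0.875. The study, by its own analysis, reported both upregulated and downregulated genes in these cells. Why the present fit called none was not tested. At an unadjusted p under 0.05, 3 genes were higher in I13 (ZNF416, ZNF749 and ZNF57), which is 1.76% beside 2.55% of all genes tested, and 1 gene was lower (ZNF581), which is 0.588% beside 2.59%. Limma's voom on recovered fragments called 0 of 166 at the adjusted p beside 0.0362% of all genes, and at the unadjusted p 4 were higher (2.41% beside 2.56%) and 1 was lower (0.602% beside 2.80%). These shares did not exceed those of all genes. The log2 fold change of the 170 genes had a median of 0.02, beside 0.01 over all genes tested, with 94 (55.3%) above and 76 below 0. The share above 0 was 51.8% over all genes tested and 54.5% over the other protein-coding genes of chromosome 19. The medians of the 134 tested genes with a KRAB pattern and of the 36 without it were 0.01 and 0.03. An exact permutation test of 3 against 3 libraries cannot go below a two-sided p of 0.1, so single genes rest on the limma fit. The median standard error of a log2 fold change was 0.16 in these genes, and in a gene with that error a difference of that size could not be told from the spread between libraries.

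ZNF581, at chr19:55635459-55645622 on the + strand, had 26.9, 25.3 and 29.2 FPKM in the control libraries and 23.4, 24.1 and 22.5 in the I13 libraries. Every I13 library was below every control library, and the lowest control and the highest I13 value lay close together. The mean was 27.2 ± 1.94 FPKM in control and 23.4 ± 0.819 in I13 (SD, n = 3), a log2 fold change of -0.21 with a standard error of 0.06 (unadjusted limma p of 0.0124, adjusted p = 0.875). Its exons overlap those of ZNF580 and CCDC106 on the same strand, so that fragments there cannot be assigned to 1 gene with certainty. ZNF580, which lies beside it and is also a finger gene without a KRAB pattern, had a log2 fold change of 0.04 (unadjusted limma p of 0.676).

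ZNF416, at chr19:57571566-57578927 on the − strand in C10, encodes a KRAB zinc finger protein with 11 fingers. It had 1.63, 1.73 and 1.72 FPKM in the control libraries and 2.43, 2.29 and 1.99 in the I13 libraries, from 72 to 99 fragments. All I13 libraries were above all control libraries. The log2 fold change was 0.38 with a standard error of 0.12 (unadjusted limma p of 0.0146, adjusted p = 0.875). ZNF749, also in C10, had 2.68, 3.34 and 2.60 FPKM in control and 3.58, 3.34 and 3.67 in I13. Control replicate 2 reached the lowest I13 library, so the groups overlapped narrowly, and the log2 fold change was 0.30 (unadjusted limma p of 0.0406, adjusted p = 0.947). ZNF57, in C1, had 1.45, 1.83 and 1.40 FPKM in control and 2.08, 1.803 and 2.19 in I13. Here control replicate 2 was above I13 replicate 2, and the log2 fold change was 0.36 (unadjusted limma p of 0.0433, adjusted p = 0.947). The exons of ZNF749 overlap those of AC003002.2 on the same strand. Those of ZNF416 and ZNF57 overlap ZIK1 and AC119403.1 on the other strand, so fragments of these genes may also mix with others. Without control replicate 3 and I13 replicate 2, ZNF581 kept an unadjusted p under 0.05 (log2 fold change -0.18, limma p of 0.0225), whereas ZNF416, ZNF749 and ZNF57 did not (limma p of 0.0774, 0.134 and 0.0944).

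**Figure D3:**
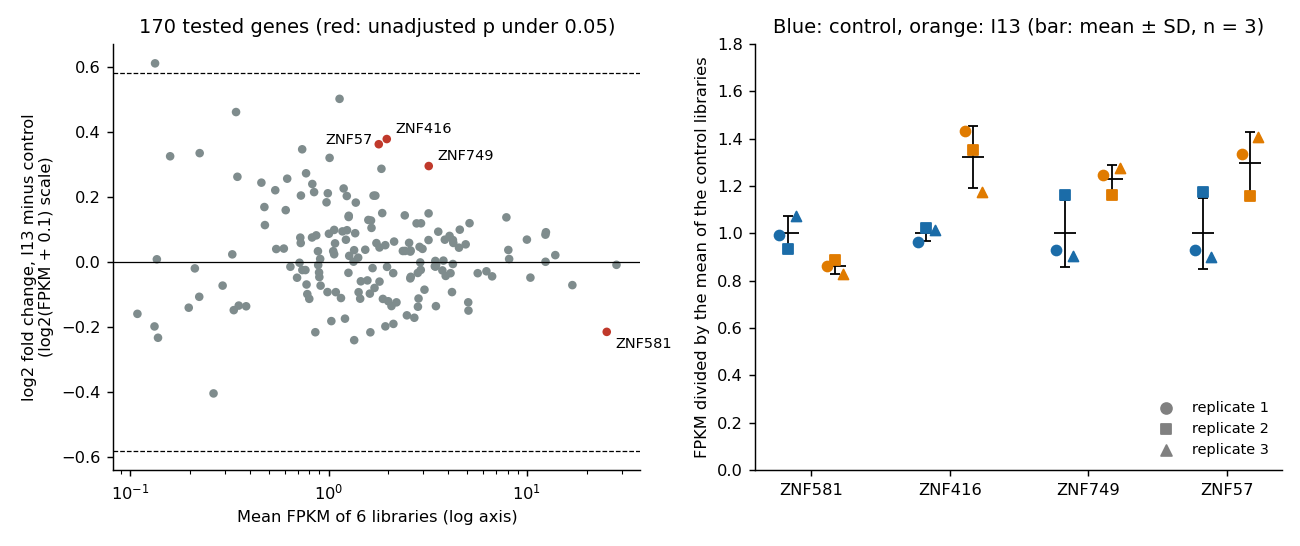
Left, log2 fold change of I13 against control (log2(FPKM + 0.1) scale) over the mean FPKM (log axis) of the 170 tested genes, with dashed lines at a change of 0.58 in either direction. Right, FPKM divided by the mean of the control libraries for the 4 genes with an unadjusted p under 0.05, 1 point per library with the mean and SD of 3 libraries, where ZNF581 and ZNF416 show no overlap between control and I13.

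The groups did not overlap in 5 genes that were higher in I13 (2.94% beside 4.88% of all genes tested) and in 2 that were lower (1.18% beside 4.64%). Beside ZNF416 and ZNF581 these were ZNF610, ZNF235, ZNF565, ZNF583 and ZNF442, which all had a mean under 1 FPKM and were named after their values had been seen. ZNF610 was the only gene past a log2 fold change of 0.58, with 0.082, 0.082 and 0.085 FPKM in control and 0.142, 0.152 and 0.258 in I13. These values stand for 5 fragments in each control library and 8, 9 and 14 in the I13 libraries, and the log2 fold change of 0.61 had a standard error of 0.40 (unadjusted limma p of 0.166, adjusted p = 0.983). At the other end, ZNF442 had a log2 fold change of -0.40 from 20 to 37 fragments (unadjusted limma p of 0.190, adjusted p = 0.983). ZNF576 had the largest fold change among genes with a mean of at least 1 FPKM, with 0.951, 0.703 and 1.13 FPKM in control and 1.101, 1.58 and 1.35 in I13. Its highest control library lay above its lowest I13 library, and the log2 fold change was 0.50 (unadjusted p of 0.0531 by limma and 0.0178 by voom). ZNF576 shares exon sequence with SRRM5 on the same strand, which leaves its fragments uncertain.

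Leaving out control replicate 3 and I13 replicate 2 moved the middle of these genes little. The median log2 fold change was then 0.03, with 105 above and 65 below 0, beside 0.02 over all genes tested. At an unadjusted p under 0.05, 1 gene was higher in the remaining 4 libraries (ZNF121; 0.588% beside 4.51% of all genes tested) and 2 were lower (ZNF581 and ZNF180; 1.18% beside 4.07%). ZNF121 was at 12.8, 12.1 and 11.1 FPKM in control and 13.8, 10.8 and 13.7 in I13, so that it was lowest in control replicate 3 and in I13 replicate 2. Set against each other, I13 replicate 2 minus control replicate 3 gave a median difference of -0.03. The median log2 fold change of these genes ran from -0.015 to 0.065 with single libraries left out. It kept its sign in 17 of 20 alternative settings.

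The medians of the clusters lay close to 0, and the sign of most of them depended on the libraries used. The median log2 fold change of a cluster lay between -0.03 in C8 and 0.12 in C1, and C1 held only 4 tested genes. In C10, the largest cluster, 26 of 41 tested genes were above 0, with a median of 0.04. In C4, 9 of 13 were above 0, with a median of 0.02 and a range from -0.14 to 0.29. Genes next to each other in a cluster had the same sign of the fold change in 80 of 148 pairs (54.1%), beside 50.5% of neighbouring protein-coding genes over the genome. Without control replicate 3 and I13 replicate 2, 3 of the 10 medians changed sign, to -0.01 in C1, 0.02 in C2 and 0.04 in C3, and that of C5, with 5 tested genes, went from 0.11 to 0.26. The shift in C5 (0.15) was larger and that in C1 (0.134) slightly smaller than the SD of the per-library medians within a group, which was 0.129 and 0.135. With single libraries left out, the median of C1 ran from 0.027 (without I13 replicate 2) to 0.21 (without I13 replicate 3). The medians of 2 of the 10 clusters, C5 and C7, kept their sign in each of these settings.

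Within each group the median of these genes was lowest in control replicate 3 and I13 replicate 2, although many single genes went another way. The median deviation from the mean of the 6 libraries was 0.04, 0.01 and -0.08 in control replicates 1, 2 and 3 and 0.05, -0.09 and 0.07 in I13 replicates 1, 2 and 3 on the log2(FPKM + 0.1) scale. Control replicate 3 was the lowest control library in 90 of 170 genes (52.9%), I13 replicate 2 was the lowest I13 library in 94 (55.3%), and both held in 59 (34.7%). Over all tested protein-coding genes these shares were 43.0%, 45.3% and 28.4%, and over all genes tested 37.8%, 41.5% and 22.1%. The other protein-coding genes of chromosome 19 went the other way, with both libraries lowest in 4.32% and both highest in 43.6% of 741 genes. The ZNF genes of the other chromosomes resembled those of chromosome 19, with both lowest in 40.4% of 213. Relative to the other libraries of the group, the median of the chromosome 19 ZNF genes with a KRAB pattern was -0.13 in control replicate 3 and -0.17 in I13 replicate 2, whereas that of the 36 genes without it was 0.03 and -0.01. Both libraries were the lowest in 39.6% of the genes with the pattern and in 16.7% of those without it.

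By position, the mean of both deviations had a negative median in 9 of the 10 clusters, and both libraries had a negative median of their own in 7. The median of the mean was -0.24 in C4, -0.21 in C6, -0.21 in C5, -0.18 in C2, -0.15 in C3, -0.13 in C1 and C8, and -0.11 in C10 and C7. In C1 only control replicate 3 was below the other libraries (-0.26, against 0.02 in I13 replicate 2), and in C5 only I13 replicate 2 (-0.35, against 0.02 in control replicate 3). C9 was above 0, at 0.08, and it was also the cluster with few KRAB patterns, found in 6 of its 16 genes. Neighbours within a cluster had the same sign of this deviation in 103 of 148 pairs (69.6%), beside 63.5% of neighbouring protein-coding genes over the genome. The shares of positive and negative genes alone give 62.2% in the clusters and 50.9% over the genome. Among genes with a mean of at least 1 FPKM, the most negative was ZNF221, with 1.11, 0.858 and 0.689 FPKM in control and 1.11, 0.838 and 1.47 in I13. ZNF430 in C4 followed, with 1.48, 1.31 and 0.988 FPKM in control and 1.59, 1.02 and 1.23 in I13. In both genes control replicate 3 and I13 replicate 2 were the lowest of their group. ZNF256 (1.93 FPKM), ZNF566 (2.58) and ZNF433 (1.09) came next. At the other end stood ZNF837, with 2.13, 1.94 and 2.79 FPKM in control and 2.30, 2.57 and 1.48 in I13, in which control replicate 3 and I13 replicate 2 were the highest of their group. ZNF576, ZNF358, ZNF324B and ZNF574 followed it.

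**Figure D4:**
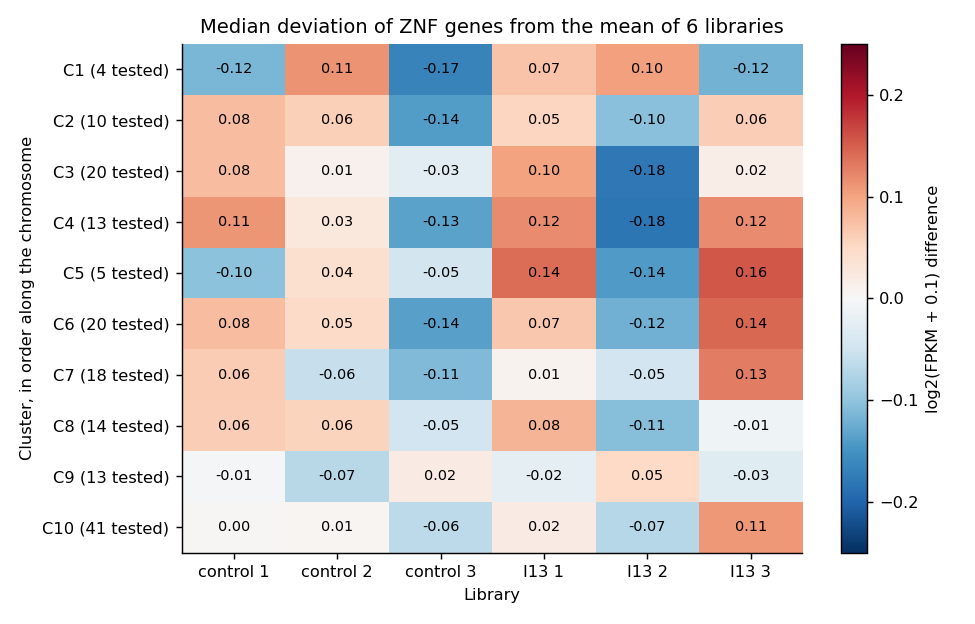
Median over the tested genes of each cluster of the deviation from the mean of the 6 libraries, on the log2(FPKM + 0.1) scale, by library. Control replicate 3 and I13 replicate 2 are below 0 in most clusters, with -0.13 and -0.18 in C4, and are above 0 in C9, at 0.02 and 0.05.

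Base composition moved with these deviations. The longest transcript had a median GC content of 43.2% in the tested chromosome 19 ZNF genes, 60.3% in the other tested protein-coding genes of chromosome 19 and 48.6% in all tested protein-coding genes. Over all of their genes, tested or not, it was 58.7% in C9 and 37.4% in C4. When all tested protein-coding genes were put into 5 classes of equal size by GC content, the median difference of I13 replicate 2 from the other I13 libraries ran from -0.21 in the lowest class to 0.10 in the highest, and that of control replicate 3 from -0.15 to 0.12. The 51 chromosome 19 ZNF genes in the lowest class stood at -0.25 and -0.19, and the 20 in the highest class at 0.12 and 0.16. The median log2 fold change between I13 and control was 0.01 in the lowest and 0.03 in the highest class of these genes. The part of base composition in the deviation of the pair was not tested.

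**Figure D5:**
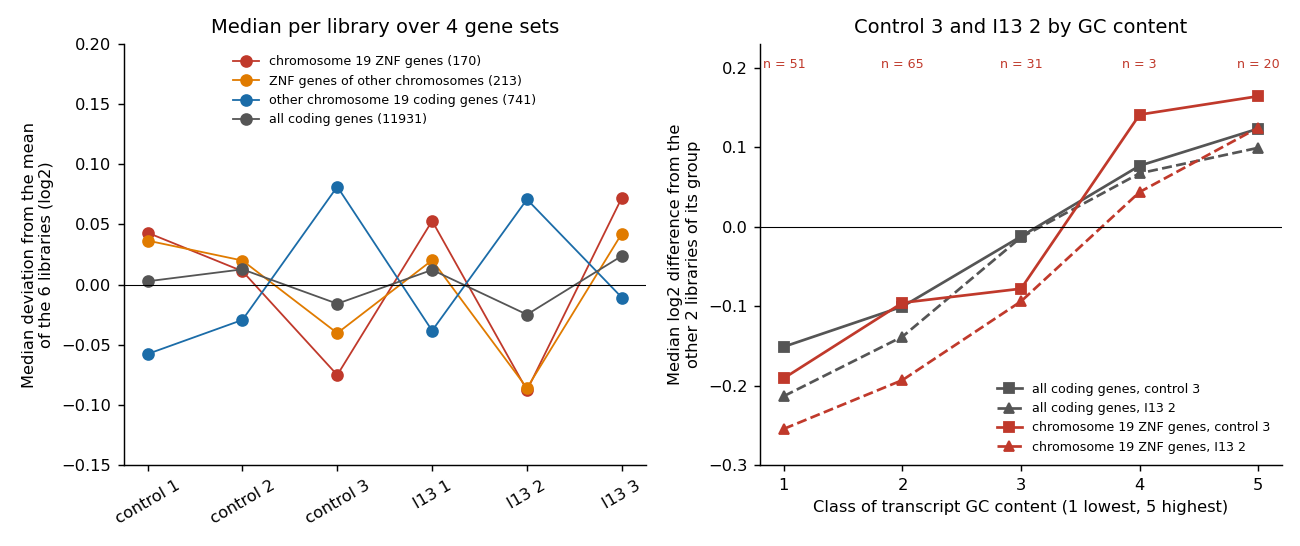
Left, median deviation from the mean of the 6 libraries (log2) for 170 chromosome 19 ZNF genes and 3 comparison sets. Right, median difference of control replicate 3 and I13 replicate 2 from the other libraries of their group by class of transcript GC content, where the ZNF genes run from -0.19 and -0.25 in the lowest class to 0.16 and 0.12 in the highest.

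The promoters, which the choice by name did not use, held some short motifs in larger shares than promoters overall. RefSeq (GRCh38.p14) gave the 250 bases before and 50 after the start for 210 of the 238 genes, and 28 had no entry. Of 7 motifs searched on both strands, the ETS core CCGGAAG was found in 94 promoters (44.8%), beside 10.7% of all 27305 promoters, 14.6% of those of the other chromosome 19 protein-coding genes and 35.9% of those of ZNF genes elsewhere. It lay within 50 bases of the start in 80 of the 94, or 85.1%, beside 57.7% over all promoters with the core. The CCAAT box, searched as CCAAT, was found in 53.8% beside 35.7%, the GC box GGGCGG in 67.1% beside 44.6%, and the TATA box TATAAA in 1.90% beside 11.95%. Among the other chromosome 19 protein-coding genes these shares were 37.7%, 71.2% and 7.05% in the same order. Among ZNF genes elsewhere they were 42.9%, 60.6% and 4.04%. The GC box was thus less frequent than in the other promoters of the chromosome. The NRF1 core GCGCATGC was in 4.29% beside 3.27%, the YY1 core AAGATGG in 8.10% beside 6.06% and the E-box CACGTG in 4.29% beside 7.43%. None of these words contains another, although matches may overlap. The ETS core was found in 42.9% of the promoters of tested genes and in 28 of 56 of those not tested. Its presence thus did not separate the genes that reached the minimum of 0.1 FPKM from those that did not. It was found in 48.8% of the promoters of genes with a KRAB pattern and in 26.3% of those without it. Between clusters its share ran from 0 of 5 promoters in C1 and 8.33% in C3 to 67.5% in C10, 70.4% in C4 and 75% of 4 promoters in C5.

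In C4, the cluster with the lowest mean of the deviations in control replicate 3 and I13 replicate 2, 19 of 27 promoters held the core, among them 8 of the 10 promoters of genes listed at 0. The 250 bases before the start of 4 of them are given on the strand of the gene, with the reverse complement of the core in capitals. ZNF254 (chr19:24086937-24087186) and ZNF430 (chr19:21020407-21020656) had means of 2.43 and 1.27 FPKM, and ZNF486 (chr19:20166964-20167213) and ZNF85 (chr19:20923001-20923250) were listed at 0. All are on the + strand of GRCh38.p14. The 6 pairs of these promoters were identical at 75.8% to 80.9% of aligned bases, and both expressed and silent genes held the core in the last bases before the start.
ZNF254: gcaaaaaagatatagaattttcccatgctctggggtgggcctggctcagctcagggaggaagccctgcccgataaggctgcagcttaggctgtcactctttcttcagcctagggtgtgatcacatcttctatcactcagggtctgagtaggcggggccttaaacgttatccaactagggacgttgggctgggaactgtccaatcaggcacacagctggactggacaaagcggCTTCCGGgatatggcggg
ZNF430: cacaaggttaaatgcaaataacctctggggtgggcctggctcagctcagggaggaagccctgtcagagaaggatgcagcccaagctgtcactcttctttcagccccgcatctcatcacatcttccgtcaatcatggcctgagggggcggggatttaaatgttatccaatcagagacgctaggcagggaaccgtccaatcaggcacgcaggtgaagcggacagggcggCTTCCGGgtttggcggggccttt
ZNF486: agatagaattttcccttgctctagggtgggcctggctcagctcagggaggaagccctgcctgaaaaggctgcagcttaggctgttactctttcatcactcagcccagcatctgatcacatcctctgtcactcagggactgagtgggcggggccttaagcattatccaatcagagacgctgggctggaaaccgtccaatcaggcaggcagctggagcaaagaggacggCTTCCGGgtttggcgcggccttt
ZNF85: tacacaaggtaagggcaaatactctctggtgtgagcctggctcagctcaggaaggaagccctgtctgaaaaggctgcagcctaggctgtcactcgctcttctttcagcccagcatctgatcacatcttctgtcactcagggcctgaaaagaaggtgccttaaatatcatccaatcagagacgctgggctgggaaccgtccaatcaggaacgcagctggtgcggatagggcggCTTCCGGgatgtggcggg

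The genes of a hand-made list of corepressor and chromatin genes were all transcribed. The list holds TRIM28, SETDB1, ATF7IP and the HP1 genes CBX1, CBX3 and CBX5, beside broader chromatin genes such as DNMT1, DNMT3A, EHMT1, UHRF1 and CHD4. Being listed does not mean that a gene acts with KRAB zinc finger proteins. All 24 genes were tested, 0 passed the adjusted p and the median log2 fold change was -0.04. At an unadjusted p under 0.05, 0 were higher and 3 were lower in I13 (the shares of all genes tested being 2.55% and 2.59%). TRIM28, the corepressor that the KRAB domain binds, had 162, 158 and 172 FPKM in the control libraries and 149, 172 and 151 in the I13 libraries. I13 replicate 2 was the highest of all and the groups overlapped, and the log2 fold change was -0.06 (unadjusted limma p of 0.404). ATF7IP, which stabilises SETDB1, had 9.48, 8.98 and 8.11 FPKM in control and 7.56, 6.97 and 7.64 in I13, a log2 fold change of -0.26 with a standard error of 0.08 (unadjusted limma p of 0.0142, adjusted p = 0.875). DNMT3A, a DNA methyltransferase, and MORC2, a factor of the HUSH silencing pathway, had log2 fold changes of -0.16 and -0.16 (unadjusted limma p of 0.0216 and 0.0493, adjusted p = 0.893 and 0.947). SETDB1 itself had 7.55, 7.32 and 7.28 FPKM in control and 6.75, 6.97 and 6.93 in I13, with no overlap and a log2 fold change of -0.10 (unadjusted limma p of 0.136). No gene of the list was higher without overlap (4.88% of all genes tested were) and 6 were lower (ATF7IP, DNMT3A, MORC2, SETDB1, CHD4 and EHMT1), which is 25% beside 4.64%. Without control replicate 3 and I13 replicate 2, 2 genes of the list were higher at an unadjusted p under 0.05 (UHRF1 and PPHLN1; 8.33% beside 4.51% of all genes tested) and 3 were lower (TRIM28, DNMT3A and ATF7IP; 12.5% beside 4.07%). The median log2 fold change of the list was then 0.01 in place of -0.04.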

How the data were processed

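mRNA sequencing of Kasumi-1 cells gave 6 libraries, 3 control and 3 incubated with I13, grouped by the sample labels. The authors deposited FPKM values per gene, made from a stranded Illumina library kit per the labels; the submitters' processing notes name Trimmomatic, HISAT2, HTSeq, Cufflinks and hg38, while the sources used here give no versions, annotation or strand setting. A gene's reads and those of overlapping genes, which 80 of the 238 genes have on the same strand and 74 on the other, may therefore mix. With GENCODE 29 exon lengths, 25773 of 27002 genes above 0 (95.4%) gave whole fragments in all 6 libraries within 0.01, and 1322 more were solved from the step between their values. Floors and fragment numbers cover counting error only.

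limma 3.58.1 in R 4.3.3 was fitted to log2(FPKM + 0.1), with 2 groups and a variance trend, over 18726 genes whose mean FPKM reached 0.1, with Benjamini-Hochberg adjustment, two-sided. A fold change on this scale understates that of low genes. Because the unit is FPKM no count test was the main result; limma's voom used the recovered fragments where these averaged 10 or more. Thresholds were those of the study's methods. The script was tested on simulated data. Sequence features were computed in Python 3.11.15 from GENCODE 29 and RefSeq promoters; fingers were counted as a cysteine pair 2 to 4 residues apart, 12 residues and a histidine pair 3 to 5 apart. The KRAB and finger patterns were searched in the translated longest coding sequence of each gene, and no amino acid sequences are printed.

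The genes named were the 10 most abundant, those with an unadjusted p under 0.05 or no overlap and a mean of at least 1 FPKM, the 5 lowest and 5 highest in control replicate 3 and I13 replicate 2, the highest of each cluster and the corepressor list; others are named as chosen after their values were seen. The genes, lists and comparisons were chosen with earlier results of these data known. Other settings tried were voom, no trend, robust variances, pseudocounts of 0.01 and 1, a minimum of 1 FPKM or none, quantile normalization, median scaling, the replicate block, a term for control replicate 3 and I13 replicate 2, their removal, each library left out and cluster gaps of 0.25 and 1 Mb.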

Additional observations from a re-analysis of the deposited data

How the results depend on the processing

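No chromosome 19 ZNF gene passed the adjusted p and fold threshold under any of 20 alternatives. The number higher in I13 at an unadjusted p under 0.05, 3 as reported, was 1 without control replicate 3 and I13 replicate 2, and 5 and 7 in the voom fits with a term for this pair and without it, which were chosen after seeing the data; leaving out single libraries gave 1 to 6, the 6 coming from the fit that lacks I13 replicate 2 and the 1 from those that lack control replicate 1, I13 replicate 1 or I13 replicate 3. The number lower, 1 as reported, was 2 without the pair, 2 without a variance trend and 2 in the voom fit with the term. The corepressor count, 3 as reported, was 5 without the pair, 1 without a trend, 7 in the voom fit without the pair and 2 to 4 with single libraries left out. The share of all genes tested with an unadjusted p under 0.05 rose as well. It was 5.14% in the main fit and 8.58% without the pair, and 5.36% in voom and 11.2% in voom without the pair. In that last fit 860 of 13814 genes were higher in I13. The shares of all genes under the other settings are not given here. The medians of C1, C2 and C3 changed sign without the pair, that of C5 was 0.26 without it and 0.28 in the voom fit without it, and that of C8 ran from -0.11 (without control replicate 3) to 0.011 with single libraries left out. ZNF581 kept its direction and an unadjusted p under 0.05 in all 20 alternatives, with 0.0479 as the highest when single libraries were left out. ZNF57, ZNF749 and ZNF416 kept their direction and lost this p in 11, 9 and 3 alternatives, and ZNF576 gained it in 7. The other results kept their side of the threshold, with the exceptions of ZNF121 (3 alternatives) and ZNF480 (2). The causes were not tested.

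The replicate numbers are not said to mark shared cultures, and the deviations of same-numbered libraries correlated at 0.08, -0.07 and -0.02, so the numbers were not taken as a pairing. Control replicate 2 with I13 replicate 3 gave 0.08, and control replicate 3 with I13 replicate 2 gave 0.07. The remaining combinations of different numbers lay between -0.06 and -0.01. With the number as a replicate block, 1 gene in place of 3 was higher at the unadjusted p and 1 corepressor gene in place of 3 passed it. Depth limits the genes under 10 fragments and those listed at 0.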
